A study of Mus musculus with 3 samples.

Results

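PARP-1 occupancy in the mouse nucleus accumbens after repeated cocaine was examined at 6 genes of synaptic transmission: Grm2, Grid1, Grik1 and Dlgap2 of glutamate transmission, Chrna5 of acetylcholine transmission and Glra3 of glycine transmission. All sites assigned to these 6 genes by symbol in the authors' deposited table of differential sites were taken, which gave 7 of its 1727 sites, with 2 in Dlgap2 and 1 in each other gene. PARP-1, a nuclear enzyme that builds ADP-ribose chains on chromatin proteins, was measured by ChIP-seq, the sequencing of DNA recovered with an antibody to the protein. The control group was C57BL/6 mice injected with saline and the treated group C57BL/6 mice injected intraperitoneally with cocaine at 20 mg/kg, each with 1 injection a day for 7 days and killed 30 min after the last one. The punches of 10 mice were pooled for each replicate, so a replicate is a pool and not an animal. Age and sex are not given in the sources used here. The labels speak of 3 replicates per group, while the table carries 2 values for cocaine and 3 for saline, numbered here in the order of the table.

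Glutamate acts through ion channels, among them the kainate receptors, and through G protein-coupled metabotropic receptors that tune release and excitability. Nicotinic and glycine receptors belong to another family, the pentameric Cys-loop channels, of which the nicotinic ones pass cations and excite and the glycine ones pass chloride and mostly inhibit. In the nucleus accumbens, glutamate arrives from cortex, hippocampus, amygdala and thalamus, and acetylcholine is released by local interneurons. Repeated cocaine is known to alter glutamate transmission in this nucleus.

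The sites lay inside the genes, 9.66 kb or more from the annotated starts. No sequence of the sites themselves is shown because no mm9 genome was used here. To show the starts that the sites did not reach, RefSeq promoter windows (build GRCm38.p6, 250 bases before to 50 after a start) are printed for the 3 of 6 genes that matched by symbol, with CpG dinucleotides in capitals. Their coordinates belong to GRCm38.p6 and cannot be set against the mm9 coordinates of the sites. The Grm2 window (chr9:106656060-106656359, minus strand) and the second Chrna5 window (chr9:54981238-54981537, plus strand) are rich in CpG, and the first Chrna5 window (chr9:54980630-54980929, plus strand) and the Glra3 window (chr8:55940168-55940467, plus strand) are poorer.
Grm2: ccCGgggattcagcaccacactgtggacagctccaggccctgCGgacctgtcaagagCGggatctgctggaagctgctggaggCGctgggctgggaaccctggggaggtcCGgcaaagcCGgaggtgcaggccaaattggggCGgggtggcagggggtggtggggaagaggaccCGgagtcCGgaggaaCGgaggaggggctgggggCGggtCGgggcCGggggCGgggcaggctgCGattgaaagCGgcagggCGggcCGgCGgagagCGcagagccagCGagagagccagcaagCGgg
Chrna5 second start: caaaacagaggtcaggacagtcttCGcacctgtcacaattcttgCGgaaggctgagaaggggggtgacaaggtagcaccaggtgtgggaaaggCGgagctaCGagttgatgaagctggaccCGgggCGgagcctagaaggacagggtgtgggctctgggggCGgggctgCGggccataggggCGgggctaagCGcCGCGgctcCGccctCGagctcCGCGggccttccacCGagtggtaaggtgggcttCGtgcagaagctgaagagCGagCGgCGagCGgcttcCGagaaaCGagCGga
Chrna5 first start: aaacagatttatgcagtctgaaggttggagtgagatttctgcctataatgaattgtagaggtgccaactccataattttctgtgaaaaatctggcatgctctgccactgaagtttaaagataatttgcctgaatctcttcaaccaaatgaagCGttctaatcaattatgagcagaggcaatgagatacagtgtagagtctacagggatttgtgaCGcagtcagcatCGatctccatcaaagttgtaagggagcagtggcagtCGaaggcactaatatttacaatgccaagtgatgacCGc
Glra3: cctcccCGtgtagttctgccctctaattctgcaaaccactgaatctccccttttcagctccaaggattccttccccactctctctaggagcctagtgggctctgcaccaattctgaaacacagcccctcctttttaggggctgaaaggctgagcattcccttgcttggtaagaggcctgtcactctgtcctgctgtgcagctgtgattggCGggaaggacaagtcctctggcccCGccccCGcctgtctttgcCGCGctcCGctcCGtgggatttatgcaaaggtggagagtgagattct

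Grm2 held 22 CpG dinucleotides in its window, the Chrna5 windows 25 and 5, and Glra3 8, against a median of 7 over the 32851 RefSeq promoter windows. The cAMP response element TGACGTCA and the AP-1 element TGANTCA, both searched on either strand, were in 0 of these 4 windows, and in 1.79% and 7.81% of all windows. The core TGACG, which the full cAMP response element contains, was found 1 time, in the first Chrna5 window, and in 20.8% of all windows. These are matches of letters and say nothing of binding.

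After cocaine, PARP-1 signal rose at 6 of the 7 sites, those of Grm2, Grid1, Grik1, Dlgap2 and Chrna5, and fell at the site of Glra3. Of all listed sites 92.9% were higher and 7.06% lower. Of the 770 listed sites in genes or promoters, to which these 7 belong, 748 (97.1%) were higher and 22 lower. At the 6 higher sites the group means differed by 2.98- to 5.14-fold, with a median of 3.96-fold, and at Glra3 saline exceeded cocaine by 4.25-fold. All 7 passed limma's test on log2(normalized read count + 1), at a Benjamini-Hochberg adjusted p under 0.05 over the 1727 listed sites. Of the listed sites 90.2% passed as higher and 5.27% as lower, because the table holds only sites that differed in these same libraries. Passing therefore says little about these genes in particular. The fold differences and intervals given per site rest on the same selection, which favours wide differences. The higher sites had a median limma log2 change of 1.77, beside 1.70 over the 1567 higher sites with a mean count under 100 and 1.67 over all listed sites, lower ones included. Fitted changes on this scale understate those at low counts and depend on the added value: with 5 in place of 1 they ran from 1.08 to 1.37 at the higher sites and stood at -1.20 at Glra3, and all 7 sites passed. In bulk tissue, more cells with PARP-1 at a site and more PARP-1 per cell cannot be told apart. Without cocaine replicate 2 none of the 1727 sites passed limma's test (1248 had an unadjusted p under 0.05), and the 7 sites had adjusted p from 0.0561 to 0.0865 with log2 changes of the same signs. Without cocaine replicate 1, Grm2, Grid1, Grik1 and Glra3 passed and Chrna5 and both Dlgap2 sites did not (adjusted p from 0.0547 to 0.077). Both fits rest on a lone cocaine sample that is assumed to vary like the saline samples.

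**Figure D1:**
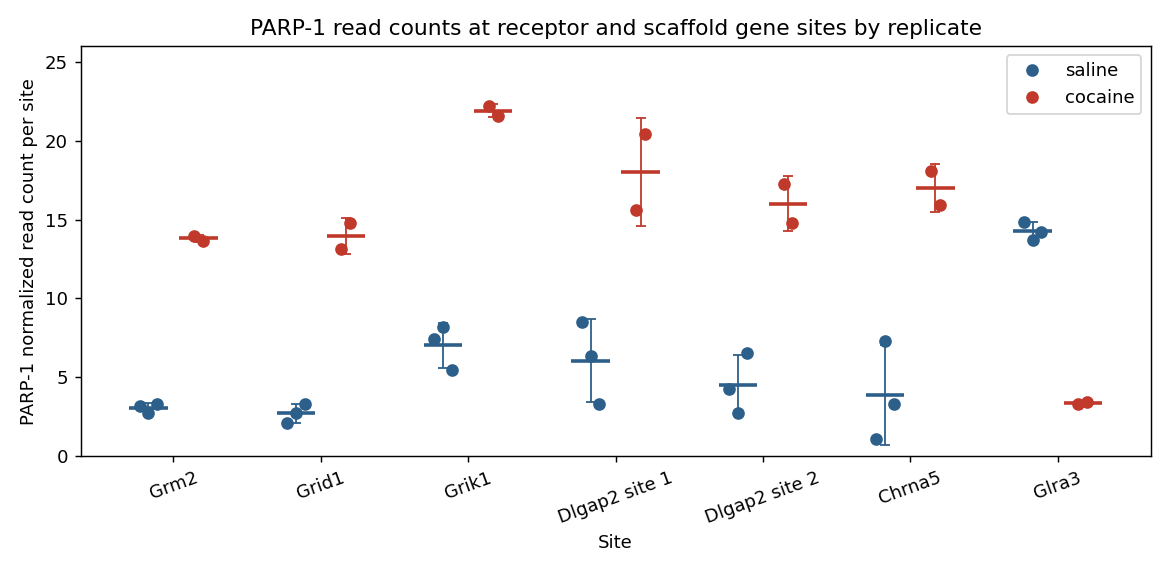
Normalized PARP-1 read count per site (vertical axis) at each of the 7 sites (horizontal axis), with 1 point per replicate, a horizontal line at the group mean and bars of 1 SD (n = 2 cocaine, n = 3 saline). The cocaine points lie above the saline points at the first 6 sites and below them at Glra3, where they read 3.29 and 3.41.

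At none of the 7 sites did the replicate values of the groups overlap. The same held for 99.0% of all listed sites, 92.2% as higher and 6.72% as lower. With 10 ways to split the samples into 2 and 3, an exact two-sided permutation test on the difference of means could not go below p = 0.1 at any single site. The pools were prepared as separate replicates per the labels, and over the listed sites they held 46406 to 82360 reads. The shallowest library had 72.3% of the depth of the deepest, by the authors' scaling. Each of the 6 higher sites rested on 29 to 46 cocaine reads and 8 to 21 saline reads in all, and Glra3 on 7 and 42.

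Grm2 encodes the metabotropic receptor mGluR2, which sits mainly on presynaptic terminals and lowers glutamate release. Its site (mm9 chromosome 9, 106547001 to 106548000, gene body) read 13.97 and 13.64 normalized reads after cocaine and 3.19, 2.74 and 3.28 after saline. The replicates of each group lay close together, and the lowest cocaine value was 4.16 times the highest saline value, the widest such ratio among the 7 sites. The group means were 13.8 ± 0.23 (SD, n = 2) and 3.07 ± 0.29 (SD, n = 3). limma's log2 change was 1.87 ± 0.23 (SE), with a 95% interval from 1.30 to 2.43 and an adjusted p of 0.00537. That is the smallest adjusted p over the listed sites, but it is a tied value and gives no rank. Grid1, Grik1 and Glra3 share it, as do sites outside these genes, such as 1 in Tmco3. Sites with limma's unadjusted p as far apart as 0.000219 (Grm2) and 0.00132 (Grik1) received it. The 12 reads of cocaine replicate 2 are the lowest number that any higher site with a mean count under 100 had in that library. The closeness of the 2 cocaine values at Grm2 therefore lies at a limit of the list. Counting error alone, on 29 cocaine and 9 saline reads, gave a wider 95% interval for the log2 ratio of read rates, from 1.06 to 3.45. limma's interval is thus likely too narrow here. The authors' deposited table gave the site an enrichment over background of 8.99 after cocaine and 2.08 after saline, above 96.9% of the 1567 higher sites with a mean count under 100 in the cocaine value.

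The Grm2 gene is short, 11.6 kb, and the site lay at its far end, 10.9 kb from the transcription start and 94.5% of the way along the gene. Its nearer edge was 134 bp from the annotated gene end. Of all listed sites in genes or promoters, 13.1% lay in the last 10% of their gene.

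Grid1 encodes the delta receptor GluD1, which is built like a glutamate channel but acts mainly as a synaptic organiser that binds cerebellins. Its site (chromosome 14, 35908701 to 35909700) read 13.14 and 14.77 normalized reads after cocaine and 2.12, 2.74 and 3.28 after saline. All cocaine values were at least 4.01 times every saline value, and the 13.14 of cocaine replicate 1 is the lowest value of that library at any higher site with a mean count under 100. The means were 14.0 ± 1.15 and 2.71 ± 0.58, and the 5.14-fold difference was the widest of the 7 sites. Among the 1567 higher sites with a mean count under 100, 51 had a wider one. limma gave a log2 change of 2.02 ± 0.26 (SE; 95% interval from 1.39 to 2.65). The site lay 275.9 kb from the start of a gene of 761.0 kb, which only 34 of the 688 genes with a listed site exceed in length.

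Grik1 encodes the kainate receptor subunit GluK1. Its site (chromosome 16, 88153001 to 88154300) read 22.2 and 21.6 normalized reads after cocaine and 7.43, 8.21 and 5.46 after saline. It was the best covered of the 7, with 46 cocaine and 21 saline reads, over a stretch of 1300 bp. The 2 cocaine values, from 27 and 19 reads, again lay close together, at a level above the lower limit of the list. With so few reads in 2 libraries, nothing is read from this closeness. The means were 21.9 ± 0.42 and 7.03 ± 1.42, a 3.11-fold difference, and limma's log2 change was 1.53 ± 0.26 (SE; 95% interval from 0.87 to 2.18). Of the 1567 higher sites with a mean count under 100, 1307 had a wider ratio of group means. The position was 136.9 kb from the start of a gene of 394.4 kb.

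Dlgap2 encodes a scaffold protein of the postsynaptic density that ties PSD-95 to Shank proteins. It was the only one of the 6 genes with more than 1 listed site, as were 53 of all 688 genes (7.70%). The first site (chromosome 8, 14283701 to 14284700) read 15.6 and 20.45 normalized reads after cocaine and 8.50, 6.38 and 3.28 after saline. Both groups spread widely there, and the lowest cocaine value was 1.84 times the highest saline value, the narrowest ratio of the 7 sites. The second site (chromosome 8, 14818201 to 14819300) read 17.25 and 14.8 after cocaine and 4.25, 2.74 and 6.55 after saline. Which replicate was higher differed between the sites: cocaine replicate 2 led at the first and replicate 1 at the second, and saline replicate 3 was the lowest at the first and the highest at the second.

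The Dlgap2 means were 18.03 ± 3.42 and 6.05 ± 2.63 at the first site, a 2.98-fold difference, and 16.0 ± 1.75 and 4.51 ± 1.92 at the second, a 3.55-fold difference. limma's log2 changes were 1.50 ± 0.40 (SE) and 1.68 ± 0.36, with adjusted p of 0.0132 and 0.00702. The sites were 534.5 kb apart, at 25.0% and 96.2% of a gene of 751.8 kb. They share a gene and the same libraries and are not replicates of each other.

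Chrna5 encodes the alpha5 subunit of nicotinic receptors, an accessory subunit that raises their calcium permeability. Its site (chromosome 9, 54837701 to 54839000) read 18.1 and 15.9 normalized reads after cocaine and 1.06, 7.29 and 3.28 after saline. The saline values ranged from 1 read to 8 reads, the widest saline spread of the 7 sites relative to its mean, and none reached the cocaine values. The means were 17.0 ± 1.53 and 3.88 ± 3.16. limma's log2 change of 2.10 was the largest of the 7, and its SE of 0.58 was the largest too (95% interval from 0.66 to 3.54, adjusted p = 0.015). The change was 1.59 without saline replicate 1 and 2.60 without saline replicate 2, with adjusted p of 0.0136 and 0.0103. The site lay 9.66 kb from the start of a gene of 26.9 kb. In the RefSeq gene order Chrna5 is followed by Chrna3 and Chrnb4, which encode some of the subunits with which alpha5 can assemble. Neither had a listed site, and the same held for the 2 nearest genes on either side of each gene examined here.

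The Chrna5 and Grm2 sites differed little in reads per kb and much in the authors' enrichment. Per 1 kb of site the cocaine means were 13.1 normalized reads at Chrna5 and 13.8 at Grm2, while the authors' deposited table gave cocaine enrichments of 1.14 and 8.99. Enrichment at Chrna5 was above that of only 1.47% of the higher sites with a mean count under 100. After saline it was 0.27 at Chrna5, 0.50 at Grid1, 0.69 at Grik1 and 0.91 at the second Dlgap2 site, all under the authors' background. The first Dlgap2 site had 1.04 and Grm2 2.08. The saline median of those higher sites was 0.78. Dividing each mean count by its enrichment gives the background that the authors' ratio implies, 14.9 reads at Chrna5 and 1.54 at Grm2 for cocaine. For saline the same division gave 14.4 and 1.48. The median for the 1567 higher sites was 6.14 for cocaine. How the background was set is not given in the sources used here.

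Glra3, which encodes the alpha3 subunit of glycine receptors, went the other way. The site (chromosome 8, 58432801 to 58433800) read 3.29 and 3.41 normalized reads after cocaine and 14.9, 13.7 and 14.2 after saline. The lowest saline value was 4.01 times the highest cocaine value, and the replicates of each group lay close together. The means were 3.35 ± 0.08 after cocaine and 14.2 ± 0.60 after saline. limma's log2 change was -1.81 ± 0.22 (SE; 95% interval from -2.36 to -1.26, adjusted p = 0.00537), the same as the median of -1.81 over the 91 lower sites with a mean count under 100. The saline values at Glra3 in replicates 2 and 3, 15 and 13 reads, were the lowest that any of these 91 lower sites had in those libraries. The small spread thus lies at a limit of the list, as at Grm2. Counting error alone again gave a wider 95% interval for the log2 ratio of read rates, from -3.49 to -0.92. The authors' deposited table gave enrichments of 0.30 after cocaine and 1.32 after saline.

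**Figure D2:**
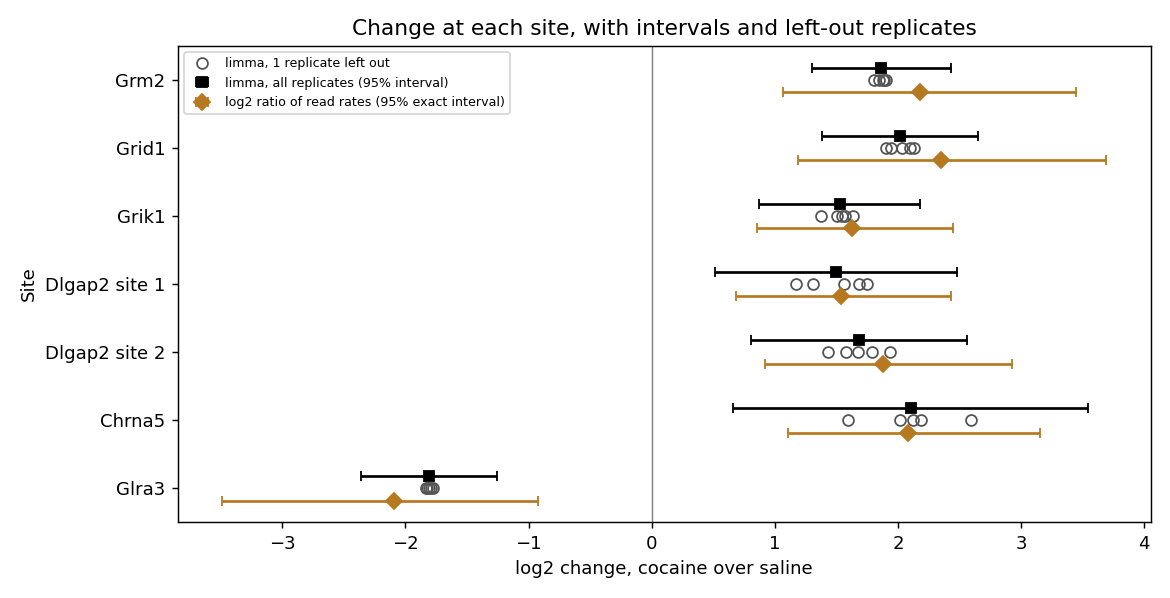
Change from saline to cocaine on the log2 scale (horizontal axis) at each of the 7 sites (vertical axis). Squares are limma with all replicates, diamonds the log2 ratio of read rates, both with 95% intervals, and open circles limma with 1 replicate left out. Every interval and every circle stays on 1 side of 0, with the widest limma interval, from 0.66 to 3.54, at Chrna5. The sites were listed because they differed in these same libraries, so intervals clear of 0 are no separate support.

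The order of the 6 higher sites by limma's log2 change ran from Chrna5 over Grid1, Grm2, the second Dlgap2 site and Grik1 to the first Dlgap2 site. Their 95% intervals all shared the stretch from 1.39 to 2.18, so no neighbours in this order were set apart by their errors. On the ratio of read rates, which has no added pseudocount, the shared stretch ran from 1.19 to 2.43. These exact conditional intervals take in counting error alone, because reads were summed within each group and differences between pools were left out. Amplified reads may also be copies of 1 molecule, which the intervals do not take in. By that ratio Grid1 came first, at 2.35 (95% interval from 1.19 to 3.69), followed by Grm2 at 2.18 and Chrna5 at 2.08 (from 1.10 to 3.16). The ratio was 1.63 at Grik1, 1.53 and 1.88 at the Dlgap2 sites and -2.09 at Glra3. The intervals of this ratio were wider than limma's at Grm2, Grid1, Grik1, the second Dlgap2 site and Glra3. At the first Dlgap2 site and Chrna5 they were narrower. The exact conditional test gave adjusted p under 0.05 at all 7 sites, as at 98.2% of all listed sites (91.9% higher and 6.31% lower).

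Set per 1 kb of site, the cocaine levels of the 6 higher sites lay between 13.1 normalized reads at Chrna5 and 18.03 at the first Dlgap2 site. The saline levels lay between 2.71 at Grid1 and 6.05 at the first Dlgap2 site. The first Dlgap2 site, with the most reads per kb in both groups, had the smallest fold difference of the 6. The Glra3 site read 14.2 per 1 kb after saline. Nothing is read from how close these upper levels lie to each other, because listing sets a floor under them: no higher site with a mean count under 100 had a cocaine mean below 13.4, and no lower one a saline mean below 13.8.

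**Figure D3:**
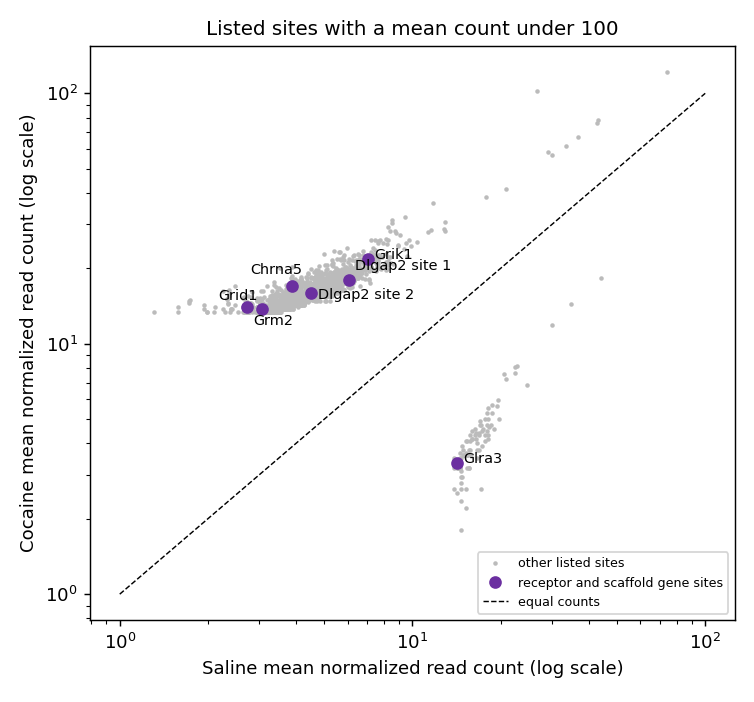
Mean normalized read count after saline (horizontal, log scale) and cocaine (vertical, log scale) of the 1658 listed sites with a mean count under 100, with the 7 receptor and scaffold gene sites in purple and a dashed line of equal counts. The 6 higher sites lie within the main cloud, with Grid1 and Grm2 near its lower edge, and Glra3 at the lower left of the 91 lower sites.

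The sites all lay inside the gene, at very different distances from its start. All 7 carry the label of gene body in the authors' deposited table, as do 89.0% of the 770 listed sites in genes or promoters. Their distances from the transcription start ran from 9.66 kb at Chrna5 to 722.9 kb at the second Dlgap2 site, beside a median of 35.7 kb over those 770 sites. Chrna5, Grm2 (10.9 kb) and Glra3 (13.7 kb) lay nearer than this median, and Grik1, Grid1 and both Dlgap2 sites farther. The Glra3 site was 7.41% of the way along a gene of 184.5 kb. The genes fell into long and short ones. Grid1, Dlgap2, Grik1 and Glra3 were longer than 94.9%, 94.8%, 86.3% and 71.7% of the 688 genes with a listed site, whereas Chrna5 and Grm2 were longer than 22.2% and 8.72%.

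**Figure D4:**
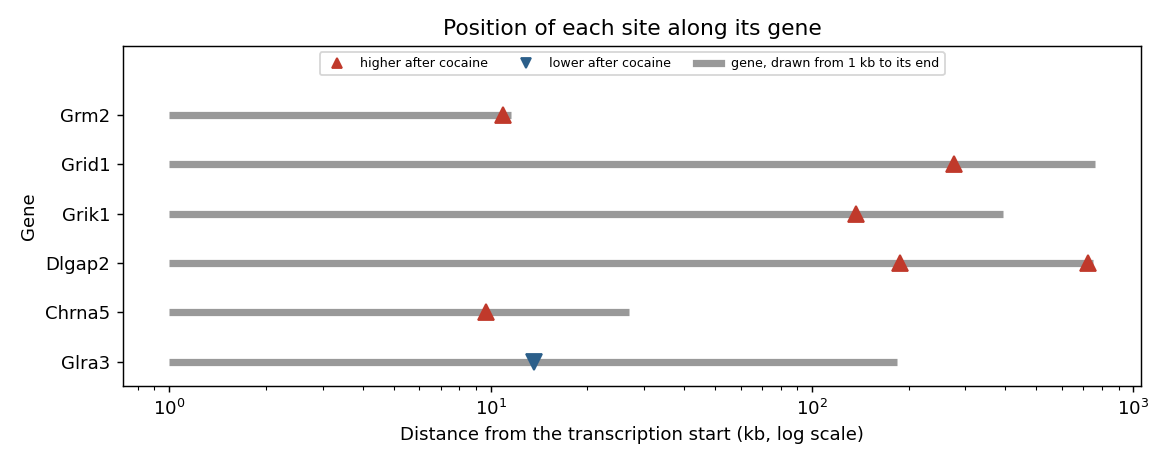
Distance from the transcription start in kb (horizontal, log scale) of each site along its gene (vertical), with grey bars drawn from 1 kb to the gene's end, upward red triangles for higher and a downward blue triangle for lower sites. The Grm2 site and the second Dlgap2 site sit near the gene end, at 94.5% and 96.2% of the length.

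Glra3 stood in a run of lower sites. The 2 listed sites nearest to it, both before the gene, were lower after cocaine too, and the 3 are consecutive in the table and span 419.2 kb. The nearer one (chromosome 8, 58394501 to 58395700) ended 23.9 kb before the Glra3 start and read 4.11 and 4.55 normalized reads after cocaine and 13.8, 16.4 and 24.02 after saline. The farther one (58014601 to 58015600), labelled a gene desert by the authors, read 8.21 and 7.95 after cocaine and 23.4, 21.9 and 21.8 after saline. limma's log2 changes were -1.81 ± 0.31 (SE) and -1.36 ± 0.22, and both passed with an adjusted p of 0.00537. The next listed sites on either side, 1808.4 kb before and 1399.5 kb after, were higher.

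Chromosome 8 held 93 listed sites, of which 4 were lower, 3 of them in this run. Of the 91 lower sites with a mean count under 100 in the genome, 13 had another within 1 Mb. Unbroken runs of 3 or more lower sites were counted if the whole run spanned at most 1 Mb. Runs holding a site with a mean count of 100 or more were left out, and this was the only run counted. The run was looked for after its values were seen, and no test was made of it.

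**Figure D5:**
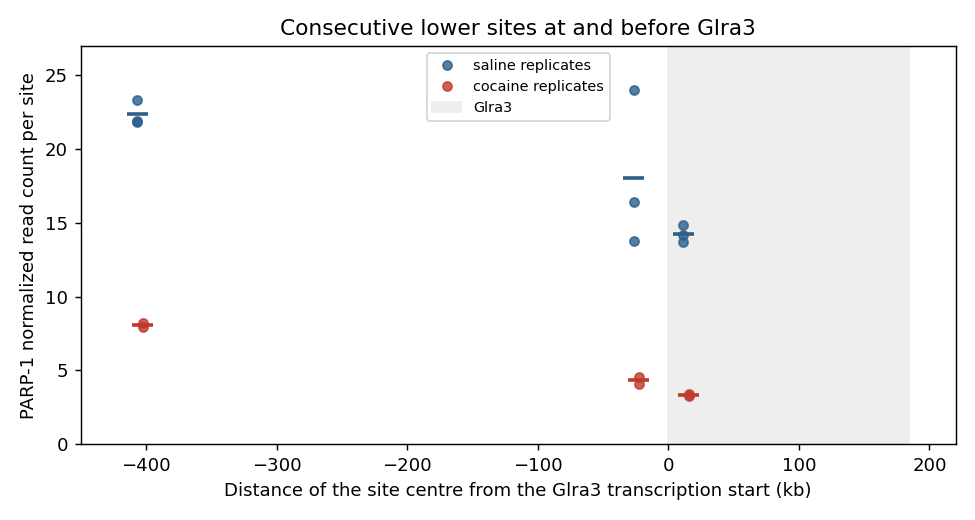
Normalized PARP-1 read count per site (vertical axis) against the distance of the site centre from the Glra3 transcription start in kb (horizontal axis, with the groups drawn 2 kb to either side of the centre), with 1 point per replicate, lines at group means and the gene shaded. At all 3 sites the cocaine points lie below the saline points, with means of 8.08, 4.33 and 3.35 against 22.4, 18.1 and 14.2.

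The listed sites within 1 Mb of the higher sites were higher as well. Grid1 had 2 such neighbours, both in Ldb3, 275.5 and 241.0 kb before its start, Grik1 had 1, the first Dlgap2 site 2 in Tmco3 besides the second Dlgap2 site, and Chrna5 1. The Chrna5 neighbour (chromosome 9, 54542201 to 54543600) read 21.4 and 21.6 after cocaine and 4.25, 12.8 and 4.37 after saline, so saline replicate 2 was the highest at both. Grm2 had no other listed site within 1 Mb. Most listed sites are higher, so like directions among neighbours are common in it.

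Listed sites were set against 6 lists of genes of these receptor systems, with 119 genes reported. Of 17 ionotropic glutamate receptor genes 2 held a listed site, Grid1 and Grik1, with 1 site each, both passing as higher. Of 8 metabotropic receptor genes 1 did (Grm2, 1 site higher), of 29 scaffold and auxiliary subunit genes 1 (Dlgap2, 2 sites higher), of 21 acetylcholine receptor genes 1 (Chrna5, 1 site higher), of 27 glycine and GABA receptor genes with gephyrin 1 (Glra3, 1 site lower) and of 17 genes on a list of transmitter transporters, which also holds the acetylcholine enzyme genes Chat and Ache, 0. Together 6 of 119 genes (5.04%) held a site, beside 2.78% of the 21896 protein-coding symbols of RefSeq. The 6 were longer, with a median of 292.3 kb, than the 113 without one, with 57.7 kb, and the same held over all protein-coding genes, with 88.8 kb against 16.5 kb. Length was not accounted for in these shares. The 6 genes and the lists were chosen with earlier results of these data known, so nothing is read from the higher share. A gene with no listed site may still bind PARP-1, since only differential sites are in the table.

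For each site, the nearest site of another gene was found by the distance over the 5 values on the log2(normalized read count + 1) scale. How small this distance usually is for a listed site was not examined. Lrrc40 was nearest to Glra3, at a distance of 0.20 among 769 sites of other genes, with 3.29 and 3.41 after cocaine and 13.8, 15.5 and 14.2 after saline. Cdh13 was nearest to Chrna5, at 0.18, and repeated its 3 saline values of 1.06, 7.29 and 3.28 exactly. Defb2 was nearest to the second Dlgap2 site, at 0.13, Kcnab2 to the first at 0.30, Bri3bp to Grm2 at 0.32, Usp40 to Grik1 at 0.33 and BC017647 to Grid1 at 0.38. No other listed site had the same reads as a site of these 6 genes in all 5 libraries.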

How the data were processed

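PARP-1 ChIP-seq libraries were made from mouse nucleus accumbens, per the labels' protocols with antibody ab6079, fragments of 250 to 350 bp, 21 PCR cycles and reads of 100 bp. The submitters' processing notes name mm9 and CASAVA 1.8.2, and the name of the deposited table gives diffReps and a negative binomial test. The aligner, duplicate handling and listing threshold are not given in the sources used here. Each cell of the deposited count columns joins normalized read counts, 1 per replicate, which the authors scaled with 1 factor per library. The averages per group that the authors deposited are a signal, the mean of these values. The authors' enrichment is a ratio over a background of theirs. Fold changes deposited by the authors are log2 values, and their p-value and adjusted p-value columns were not recomputed. The treatment columns were taken as cocaine and the control columns as saline, from the table's name and the design text.

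All values were whole multiples of 1 read within 0.1 read (100% of 1727 in each library), which gave reads per site. With limma 3.58.1 in R 4.3.3, log2(normalized read count + 1) was fitted over all 1727 sites without a filter or covariate, with Benjamini-Hochberg adjustment. An exact conditional binomial test compared the cocaine share of reads, summed over the replicates of each group, with the cocaine share of depth, 41.5%. It leaves out variation between pools. On simulated Poisson reads for the 1727 sites, limma called 57 of 100 sites changed 4-fold, 5 of 100 changed 2-fold and 1 of 1527 unchanged. The exact test called 96, 24 and 4 of these. The simulated reads held no variation between pools and no selection of sites, so they give no error rate for the listed sites.

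The 6 genes and the 6 gene lists were chosen with earlier results of these data known. Named genes were all sites of the 6 genes, every gene of the lists with a site, and the nearest site of another gene by Euclidean distance over the 5 values. Alternatives were other pseudocounts, a filter on low counts, leaving out high-count sites (mean of at least 100), an intensity trend, another scaling, the exact test and leaving out each replicate. A gene of the lists is not reported here. The input sample was not analysed here.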

Additional observations from a re-analysis of the deposited data

How the results depend on the processing

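The 7 sites kept their direction under each alternative that gave them a value, among pseudocounts of 0.5 and 5, the filter on mean count, leaving out the 69 high-count sites, an intensity trend, rescaling to those sites, the exact conditional test and leaving out each replicate. All passed under each but 3, the filter and the fits without a cocaine replicate. With a pseudocount of 5 the log2 changes shrank, to 1.22 at Grm2, 1.30 at Grid1, 1.17 at Grik1, 1.08 and 1.16 at Dlgap2, 1.37 at Chrna5 and -1.20 at Glra3. A filter at a mean count of at least 10 left 981 sites to test, of which 907 passed. It removed Grm2, Grid1 and Glra3 from the test, so 0 lower sites of these genes remained and the other 4 passed. With 1 replicate left out, the number of passing sites ran from 0 to 1651 over the table, from 0 to 6 for the higher sites of these genes and from 0 to 1 for the lower. The lowest values came without cocaine replicate 2 (0, limma) and, for the table, next without cocaine replicate 1 (794). The log2 changes then ran from 1.81 to 1.90 at Grm2, from 1.90 to 2.13 at Grid1, from 1.38 to 1.63 at Grik1, from 1.17 to 1.75 and from 1.43 to 1.94 at the first and second Dlgap2 site, from 1.59 to 2.60 at Chrna5 and from -1.84 to -1.78 at Glra3. No overlap between groups was seen at all 7 sites on unscaled reads and after rescaling. A planned edgeR fit on the recovered reads was not run. No paired analysis was possible because the columns carry no replicate numbers from the labels. The lower group of each site held at most 21 reads in all, so its level is the less precise one.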
